A study of Mus musculus with 2 samples.

Results

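HDAC4 ChIP-seq peaks at 4 genes were described: Junb, Nr4a1 and Npas4, which are immediate early genes, and Crtc1, which encodes a coactivator that acts on the promoters of such genes. The genes were chosen by the peak call, because the authors' annotated list of 229 peaks names them, either as the gene of a peak or as a gene flanking it, and each was named at exactly 1 peak, so 4 of 229 peaks were studied. The peak call against input was therefore the criterion of selection, and the enrichment values below describe these peaks and do not test them. The experiment used C2C12, an immortalized mouse myoblast cell line of the C3H strain at passages 30-32, which proliferates in serum-rich growth medium (GM) and fuses into myotubes when serum is withdrawn. The HDAC4 ChIP group was 1 library of chromatin fixed with formaldehyde, sonicated and precipitated with an anti-HDAC4 antibody. The input group was 1 library of chromatin without precipitation. Both came from cells kept for 24 hours in GM with 20% fetal bovine serum, with no gene deletion and no further treatment in either group. There were no replicates, so no difference between groups of cultures could be tested. The rabbit IgG precipitate that the protocol mentions was not analysed here. The peak list holds no expression values, so the identity of the cells could not be checked against muscle markers, nor could the levels of HDAC4 or of the 4 genes.

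Immediate early genes are transcribed within minutes of a stimulus such as serum, calcium entry or cyclic AMP, without new protein synthesis, and many encode transcription factors that switch on later genes. JunB is a subunit of the AP-1 complex, which binds the TGANTCA sequence. Nr4a1 (Nur77) is an orphan nuclear receptor that binds AAAGGTCA. Npas4 is a basic helix-loop-helix PAS factor best known as a calcium-dependent activator of transcription in neurons. Crtc1 encodes a coactivator that is held in the cytoplasm by salt-inducible kinases and 14-3-3 proteins, is released by calcineurin, and binds CREB on TGACG or TGACGTCA elements of promoters. HDAC4 is a class IIa histone deacetylase that does not bind DNA by itself. It reaches chromatin through partners, above all the MEF2 factors, and CaMK and salt-inducible kinases drive its export from the nucleus on 14-3-3 proteins. In T cells, MEF2 factors and class IIa deacetylases are known to act on the Nr4a1 promoter.

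The sequences under the 4 summits are shown because the position of the peaks and the motifs in them are what sets the 4 genes apart from each other. Each is the GRCm38 (mm10) sequence on the strand of the gene, and capitals mark matches to the motifs described below. The Junb, Nr4a1 and Npas4 sequences run from 100 bases before to 100 bases after the summit, which is the middle base. The Crtc1 sequence has 130 bases, since it was ended where the GENCODE transcript begins. Of these bases, 123 lay in exons of predicted RefSeq transcripts of Crtc1. The reference genome is that of C57BL/6J mice, so bases that differ in the C3H strain of the cells would not be seen. Junb is the reverse complement of chr8:84978011-84978211 and lies wholly in coding sequence. Nr4a1 is chr15:101254002-101254202, Npas4 the reverse complement of chr19:4993028-4993228 and Crtc1 the reverse complement of chr8:70439580-70439709.
Junb: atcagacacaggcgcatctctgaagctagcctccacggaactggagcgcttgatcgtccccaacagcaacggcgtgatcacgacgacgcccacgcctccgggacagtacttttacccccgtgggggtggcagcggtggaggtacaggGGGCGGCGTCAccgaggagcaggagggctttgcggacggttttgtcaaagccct
Nr4a1: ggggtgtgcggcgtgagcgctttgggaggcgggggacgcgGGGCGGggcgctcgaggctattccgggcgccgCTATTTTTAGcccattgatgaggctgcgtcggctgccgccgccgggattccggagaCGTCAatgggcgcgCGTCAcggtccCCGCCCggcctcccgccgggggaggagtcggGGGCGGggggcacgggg
Npas4: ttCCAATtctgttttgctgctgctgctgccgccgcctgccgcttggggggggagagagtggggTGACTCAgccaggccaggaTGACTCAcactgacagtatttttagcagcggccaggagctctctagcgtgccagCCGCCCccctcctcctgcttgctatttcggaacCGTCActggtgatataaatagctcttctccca
Crtc1: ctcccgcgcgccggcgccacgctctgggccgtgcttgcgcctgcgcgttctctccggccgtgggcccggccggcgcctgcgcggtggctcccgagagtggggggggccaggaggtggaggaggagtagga
The stretch shown for Nr4a1 holds a MEF2 site and that for Npas4 holds 2 AP-1 sites, both upstream of the summits, while the Crtc1 stretch has no capitals.

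By the GENCODE gene models, the 4 peaks held different positions in their genes (Junb in the coding exon, Nr4a1 and Crtc1 at a start site, Npas4 upstream). The Junb peak spanned chr8:84977959-84978299 with its summit at 84978111, on the minus strand gene at 84974484-84978718. Its summit lay 607 bp downstream of the start of the protein-coding transcript, and the authors' annotation called it exonic. This transcript has 1 exon with a coding sequence of 1032 bp, and all 341 bp of the peak lay in it, over codons 44 to 157, with the summit in codon 107. The peak thus covered 33.0% of the coding sequence and did not reach the start site. Prdx2 ended 3277 bp beyond the summit, and Hook2 was 12492 bp from it on the other side. Peaks of ordinary pileup are the 188 on chromosomes 1 to 19 and X with at most 55 tags, or 5 times the median of all peaks. Of these 188, 129 lay at least as close to a start site, and their median distance was 283 bp. Here and below, this order counts only start sites of protein-coding transcripts.

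The Nr4a1 peak spanned chr15:101253918-101254269 with its summit at 101254102. The authors' table placed it between Grasp, at 21345 bp, and Nr4a1, at 12745 bp, and called it intergenic. In the GENCODE M21 annotation it fell on a start site instead, since the transcript Nr4a1-202 begins at 101254269 and the last base of the peak is the first base of its first exon. The summit lay 167 bp upstream of this start and at −12744 bp from the start shared by the other protein-coding transcripts, at 101266846, which is also the start of the curated RefSeq transcript. In the gene map both kinds of transcript share their coding exons, far downstream of the peak. Of 6 predicted RefSeq transcripts of Nr4a1, 1 spanned the summit. With 167 bp, 72 of the 188 peaks of ordinary pileup lay at least as close to a start site.

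The Npas4 peak spanned chr19:4992916-4993299 with its summit at 4993128, upstream of the minus strand gene at 4984355-4990316. The summit was 2812 bp upstream of the start of the protein-coding transcript and at −3157 bp from the curated RefSeq start. The authors' annotation called it intergenic, listing Npas4 at 3156 bp and Slc29a2 at 30879 bp. No base of the peak was in an exon of a protein-coding gene in GENCODE. However, the summit was 15 bp upstream of AC124502.5, a transcript of unproven status (TEC) on the same strand, at 4991357-4993113. Moreover, all 3 predicted RefSeq transcripts of Npas4 spanned the summit. Every base of the Npas4 sequence shown above lay in exons of predicted RefSeq transcripts of Npas4. The peak was thus outside the exons of Npas4 in GENCODE but not in the predicted RefSeq models. Among the 188 peaks of ordinary pileup, 157 lay at least as close to a start site and 31 lay farther, so this was the most distant of the 4.

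The Crtc1 peak spanned chr8:70439488-70439840 with its summit at 70439609, on the minus strand gene at 70382355-70439579. The summit was 30 bp upstream of the start of the protein-coding transcript and 36 bp upstream of the curated RefSeq start, and the authors called it upstream. Of its 353 bp, 92 lay in the first exon, of which 71 were coding and 21 were in the 5′ UTR. Among 10 predicted RefSeq transcripts of Crtc1, 9 spanned the summit. Only 26 of the 188 peaks of ordinary pileup lay at least as close to a start site. Klhl26, the nearest other gene, was 10610 bp from the summit.

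**Figure D1:**
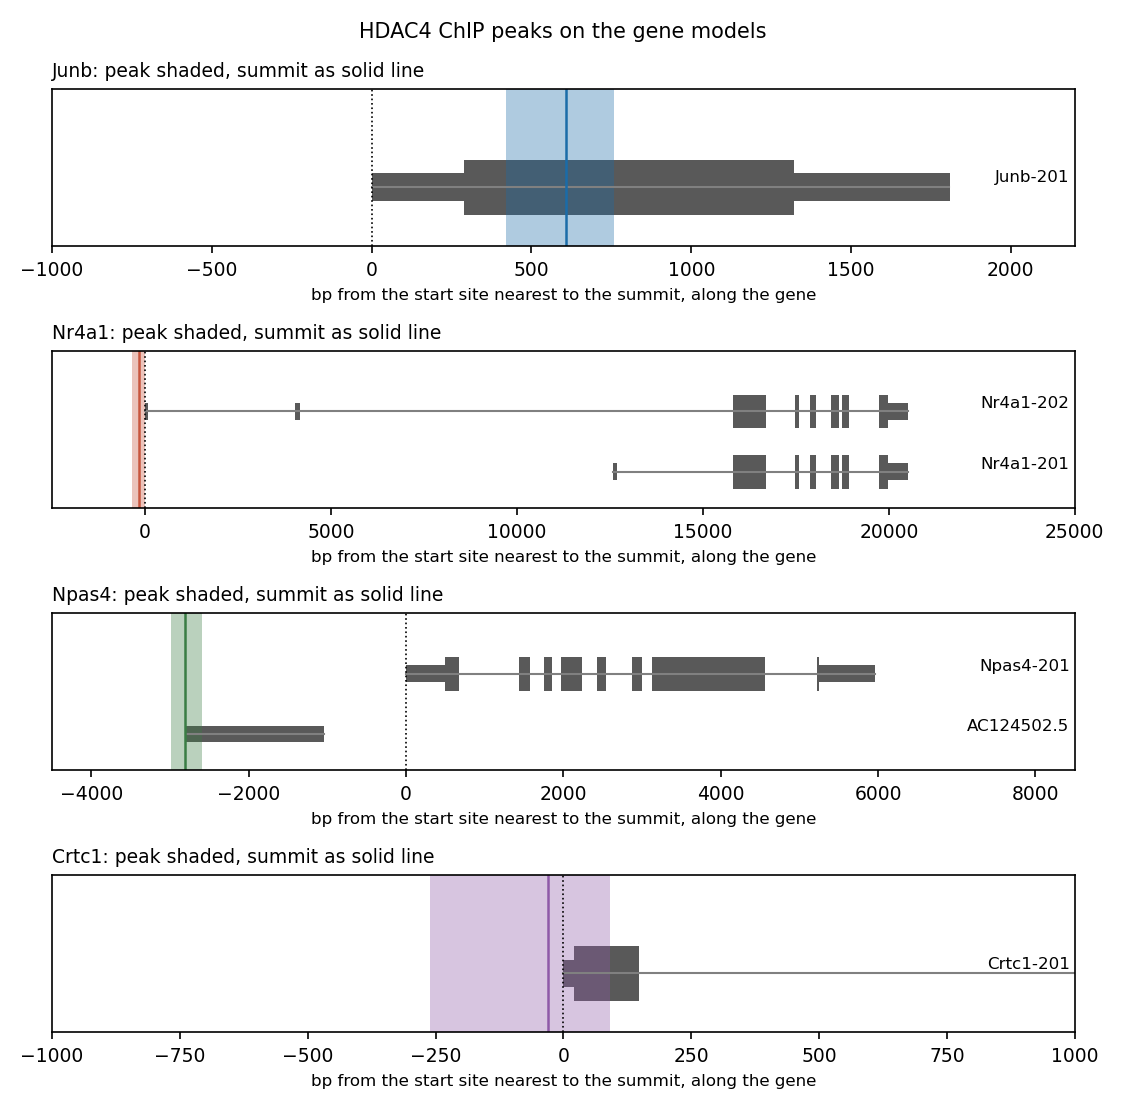
Position of the 4 HDAC4 ChIP peaks on GENCODE gene models, with distance along the gene in bp on the x axis. The dotted line, at 0, is the start of the gene's protein-coding transcript nearest to the summit. The peak is shaded and the summit is a solid line. Thick boxes are coding sequence, thinner boxes are the rest of the exons, and each row is 1 transcript. The Junb summit sits inside the coding exon at 607 bp, the Nr4a1 and Crtc1 summits just before a start site at −167 and −30 bp, and the Npas4 summit at −2812 bp beside the start of AC124502.5; the Crtc1 panel shows only the start of its gene.

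Only the Crtc1 peak had another peak within 100 kb of its summit. The nearest other peak to Crtc1 was 86326 bp away, upstream of Upf1, an RNA helicase of nonsense-mediated decay, with 16 tags and a fold of 11.0. The nearest to Junb was 105596 bp away, in Syce2, that to Npas4 was 516293 bp away, in Syt12, and that to Nr4a1 was 2996916 bp away, in H1fnt. Junb and Crtc1 share chromosome 8, which had 10 peaks, while chromosome 15 had 16 and chromosome 19 had 14.

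ChIP signal at the 4 summits was of the order of 10 tags. The pileup, or count of extended ChIP tags that overlap the summit, was 10 tags for Junb (exact Poisson 95% interval 4.80 to 18.4), 16 for Nr4a1 (9.15 to 26.0), 14 for Npas4 (7.65 to 23.5) and 12 for Crtc1 (6.20 to 21.0). The intervals cover counting error only, and all 4 overlap, so the order of the peaks by pileup was not resolved at this depth. Of 10903000 ChIP tags, 1920168 (17.6%) were kept because at most 1 tag was counted per position and strand, while of 19038793 input tags 17798166 (93.5%) were kept. The median pileup was 13 tags in the 4 peaks, 11 in all 229 and 10 in the 188 of ordinary pileup.

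The input background at each peak was derived from the deposited pileup and fold, and divided by the scale between the libraries (0.108) it gave whole input tags in one of the windows that the peak caller compares. The Junb peak had 10 ChIP tags against 0.647 scaled input tags, which are 6 input tags in 297 bp (2.20 to 13.1). The Nr4a1 peak had 16 ChIP tags against 1.08 scaled input tags, from 10 input tags in 297 bp (4.80 to 18.4). The Npas4 peak had 14 ChIP tags against 0.432 scaled input tags, from 4 input tags in 297 bp (1.09 to 10.2). The Crtc1 peak had 12 ChIP tags against 0.545 scaled input tags, from 17 input tags in 1000 bp (9.90 to 27.2) if the smaller of the 2 windows that gave a whole number is taken. In each case the lower bound of the ChIP tags was above the upper bound of the scaled input, the contrast by which the peaks were chosen.

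**Figure D2:**
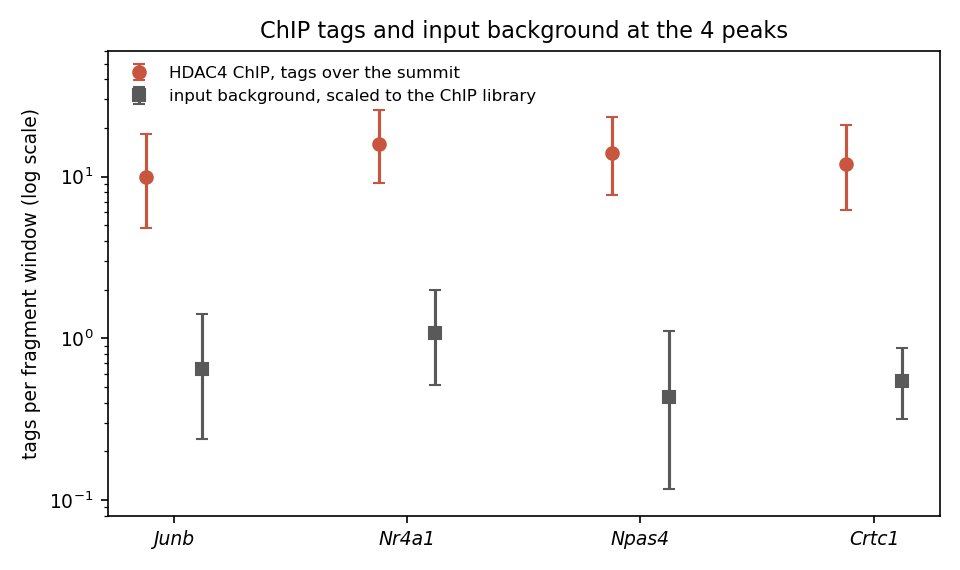
HDAC4 ChIP tags over the summit (circles, left of each pair) and input background scaled to the ChIP library (squares, right), in tags per fragment window on a log axis, with exact Poisson 95% intervals; each point is 1 library. The ChIP values are 10, 16, 14 and 12 tags for Junb, Nr4a1, Npas4 and Crtc1 and the input values 0.647, 1.08, 0.432 and 0.545, so Nr4a1 has both the highest ChIP and the highest input value and Npas4 the lowest input value.

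The background was 2.12 times the genome-wide input level of 0.305 scaled tags at Junb, 3.54 times at Nr4a1, 1.42 times at Npas4 and 1.79 times at Crtc1, with a median of 1.95 in the 188 peaks of ordinary pileup. The 4 input counts also had overlapping intervals once scaled. Thus the high place of Npas4 by fold went with few input tags, and Nr4a1, with more ChIP tags than Npas4, had a lower fold over a background of more input tags.

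The fold over input given by the authors, (pileup + 1) / (background + 1), was 6.68 at Junb (3.52 to 11.8 from counting of ChIP tags), 8.18 at Nr4a1 (4.88 to 13.0), 10.5 at Npas4 (6.05 to 17.1) and 8.42 at Crtc1 (4.66 to 14.2). The intervals overlap for every pair. The constant of 1 weighs on a background below 1 tag, and the plain ratio of ChIP to scaled input was 15.4 at Junb (5.09 to 51.7 with the counting error of both libraries), 14.8 at Nr4a1 (6.33 to 36.6), 32.4 at Npas4 (10.2 to 135) and 22.0 at Crtc1 (9.60 to 48.9). Without the constant Junb came above Nr4a1, whereas Npas4 and Crtc1 kept the first and second places among the 4. The deposited −log10 p was 9.94 at Junb, 14.4 at Nr4a1, 17.8 at Npas4 and 13.4 at Crtc1, and the −log10 q was 5.20, 9.47, 12.7 and 8.51 in the same order of genes. The authors' q-value cutoff for the list was 0.01. The weakest peak listed, in Cecr6, was above this cutoff, with a −log10 q of 2.80 and 7 tags. Regions that missed the cutoff are not in the list, so the values just outside it are not known.

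Among all 229 peaks ordered by fold, Npas4 ranked 8, Crtc1 25, Nr4a1 30 and Junb 117. Crtc1 was tied with Arhgef2, which had the same 12 tags and the same fold of 8.42. Junb, at 6.68, was just under the median fold of 6.72 and the other 3 peaks were above it. With each pileup moved over its Poisson interval and all other peaks held fixed, the ranks ran from 1 to 164 for Npas4, from 3 to 212 for Crtc1, from 4 to 209 for Nr4a1 and from 4 to 223 for Junb. The order of the 4 peaks by rank was thus not resolved either.

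The order also depended on the measure. By pileup, the ranks were 57 for Nr4a1, 68 for Npas4, 87 for Crtc1 and 132 for Junb, with 5, 12, 22 and 27 peaks at the same count. By −log10 q they were 50 for Npas4, 61 for Nr4a1, 68 for Crtc1 and 162 for Junb. Junb was the lowest of the 4 by fold, pileup and −log10 q alike.

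Peaks of like fold were of different kinds. Directly above Npas4 stood the Upf1 peak (fold 11.0, 16 tags), and directly below it a peak on the mitochondrial genome, of fold 10.2 with 274 tags. Directly above Junb stood a peak on an unplaced scaffold, of fold 6.70 with 78 tags, and directly below it the Tspan3 peak (6.65, 8 tags). Nr4a1 stood between Mxi1 (8.24, 12 tags), a MAX-interacting repressor of the Myc network, and Tspan13 (8.13, 10 tags), and below Crtc1 came Gm13363 (8.38, 11 tags). None of the 4 genes belonged to the 41 peaks of high pileup or unplaced sequence, which had 37 to 351 tags.

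**Figure D3:**
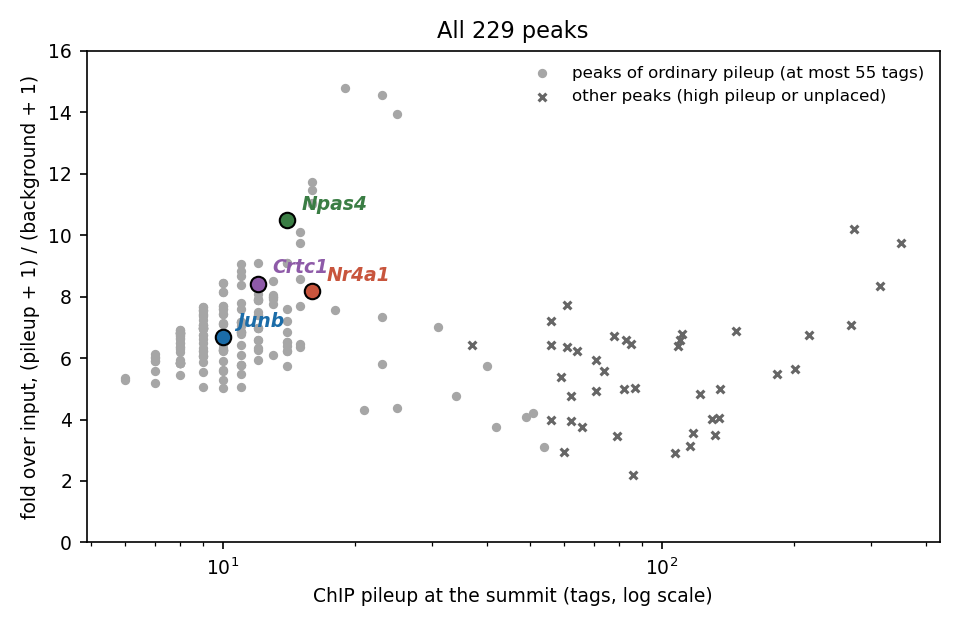
Fold over input against ChIP pileup at the summit (tags, log axis) for all 229 peaks, each point 1 peak of the single ChIP library; dots are the 188 peaks of ordinary pileup, crosses the other 41, and colored circles the 4 genes. Npas4 lies at 14 tags and fold 10.5, Crtc1 at 12 and 8.42, Nr4a1 at 16 and 8.18, and Junb at 10 and 6.68, all within the cloud of ordinary pileup.

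Base composition differed among the 4 summits. In the window of 100 bp to each side of the summit, the G and C content was 75.6% at Nr4a1, 70.1% at Crtc1, 63.2% at Junb and 58.2% at Npas4, against a median of 70.1% in the 188 peaks of ordinary pileup. The same windows held 30 CpG dinucleotides at Nr4a1, 26 at Crtc1, 18 at Junb and 8 at Npas4, against a median of 21. The observed over expected CpG ratio was 1.11 at Nr4a1, 1.09 at Crtc1, 0.900 at Junb and 0.472 at Npas4. Among the 221 peaks with sequence, Nr4a1 ranked 35 by G and C content, Crtc1 89, Junb 161 and Npas4 179. The Npas4 window thus had the fewest CpG of the 4 and the largest share of repeat-masked bases (25.9%), with 14.4% at Crtc1 and 0% at Junb and Nr4a1.

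**Figure D4:**
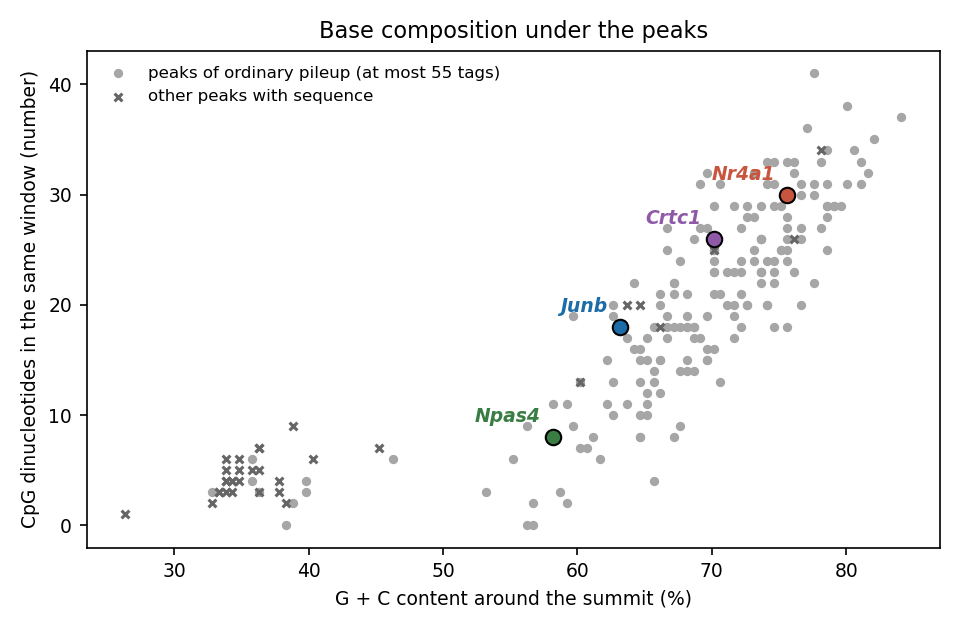
Number of CpG dinucleotides against G and C content (%) in the window of 100 bp to each side of the summit, for the 221 peaks with sequence; dots are the 188 peaks of ordinary pileup, crosses the others, and colored circles the 4 genes. Nr4a1 (75.6%, 30 CpG) and Crtc1 (70.1%, 26) lie in the dense part of the cloud, Junb (63.2%, 18) lower in it and Npas4 (58.2%, 8) toward its poor end.

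Motifs of the factors that act on immediate early genes were searched on both strands in the same windows. The AP-1 site TGANTCA stood 2 times in the Npas4 window, both as TGACTCA, 15 and 34 bp upstream of the summit along the gene, and in none of the other 3. It was found in 2.26% of the 221 peaks with sequence and in 2.13% of the 188 of ordinary pileup. Of 21951 windows of the same length around start sites, 4.11% held it. The other peaks of ordinary pileup with this site were 0610009L18Rik, Mdm2 and Tmem65, with 1 site each.

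The MEF2 site stood in the Nr4a1 window as CTATTTTTAG, 23.5 bp upstream of the summit from centre to base. It was found in 2.26% of the 221 peaks with sequence, which are 5 peaks. Its share was 1.60% of the 188 peaks of ordinary pileup and 1.24% of the start site windows. Of the other holders, 2 were peaks on the mitochondrial genome, and those of ordinary pileup were Mef2a, itself a MEF2 factor, with 14 tags and a fold of 9.11 at rank 13, and AI839979, with 11 tags and a fold of 7.80. The Npas4 peak held a MEF2 site as well, TTAAAAATAG, but 146.5 bp downstream of its summit and outside the window. No MEF2 site was found in the Junb or the Crtc1 peak. Nor was one found in the 300 bp RefSeq promoters of Nr4a1 and the other 3 genes, at their curated starts. Of all 32851 promoters, 3.19% held one.

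The short CREB element TGACG stood 2 times in the Nr4a1 window, 30 and 44 bp downstream of the summit, and 1 time each in the Junb and Npas4 windows, 55 and 71 bp downstream. The Crtc1 window had none. TGACG was in 24.4% of the 221 peaks, 22.3% of the 188 of ordinary pileup and 18.9% of the start site windows. A match is thus common. The full palindrome TGACGTCA, which contains TGACG on both strands, was found in none of the 221 peaks and in 2.01% of the start site windows. The 300 bp RefSeq promoters of the same 4 genes lie at the curated starts and not at the Junb, Nr4a1 and Npas4 peaks. In them TGACG matched 4 times for Nr4a1, 2 times for Npas4, 1 time for Junb and not for Crtc1. Of all 32851 promoters, 20.8% held it.

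GC-rich and basal promoter motifs differed too. The Sp1 box GGGCGG stood 3 times in the Nr4a1 window and 1 time each in those of Junb and Npas4. It was in 45.7% of the peaks, 52.1% of those of ordinary pileup and 40.0% of the start site windows. A CCAAT box stood in the Npas4 window alone among the 4, 96 bp upstream of the summit (9.05% of the peaks, 28.2% of the start site windows). The NRF1 core TGCGCA (12.2% of the peaks, 7.58% of the windows), the CArG box of serum response factor (0% and 0.793%) and the NR4A site AAAGGTCA (0% and 0.692%) were absent from the 4 windows. The Crtc1 window matched none of the 9 motifs. A match is a description of the letters and does not show that a factor was bound, and no match says nothing of the factor.

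The 4 genes were then set beside the rest of their pathways. In the authors' gene column, 0.816% of 21924 protein-coding genes were named at a peak, as were Junb and Npas4 of 34 immediate early genes. Nr4a1 was added when the peak had only to be within 10 kb of the gene, with 1.37% of all genes by that rule. Since these genes were chosen for their peaks, nothing was read from those counts. With rows placed in or upstream of a gene only, the background was 0.748% and Junb alone was left, and when only peaks with −log10 q of 5 or more were taken it was 0.57% and both Junb and Npas4 were kept. Within 100 kb of a start site the background was 4.3%, and 7 of the 34 genes (20.6%) had a summit. Junb, Nr4a1 and Npas4, chosen for their peaks, were among the 7, so nothing was read from this count either.

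The 4 immediate early genes that this wider rule added had their peak at another gene's position. The peak at −48613 bp from the start of Arc, which encodes a synaptic protein, was listed at Them6 (12 tags, fold 6.32). That 54767 bp downstream of the start of Maff, a small Maf factor, was in Tmem184b (14 tags, 6.39). Ier3, an early response gene, had its peak 75542 bp downstream, at 2310061I04Rik (15 tags, 8.58), and Ier2 had its peak 96626 bp downstream, in Cacna1a (9 tags, 6.99). The paralogs and partners Fos, Fosb, Jun, Jund, Egr1, Nr4a2 and Nr4a3, named here after the counts were known, had no peak by any of these rules, and at this depth weaker sites would not be detectable.

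Crtc1 was the only one of 27 CREB and CRTC pathway genes with a peak under each of the 5 rules. That is 3.70% of the list, against 0.816% of all protein-coding genes in the gene column, 0.748% in or upstream of a gene, 0.57% at −log10 q of 5 or more, 1.37% within 10 kb and 4.3% within 100 kb, and since Crtc1 was chosen for its peak nothing was read from the count. The list includes Crtc2 and Crtc3, CREB itself (Creb1), the acetyltransferases Crebbp and Ep300, the salt-inducible kinases Sik1 to Sik3 and the calcineurin subunits, none of which had a peak. In the list of 33 genes of class IIa HDACs, MEF2 factors, kinases and 14-3-3 proteins, 2 (6.06%) had a peak in the authors' gene column, against 0.816% of all genes. These were Mef2a, 26 bp downstream of its start (14 tags, fold 9.11), and Ywhaz, a 14-3-3 protein that holds phosphorylated class IIa HDACs in the cytoplasm, 188 bp downstream (15 tags, 6.47). Within 100 kb the count was 4 (12.1%, against 4.3% of all genes), but the added genes had their peak at another gene's position. The peak 81794 bp downstream of the start of Mef2b was listed at Sugp2 (18 tags, 7.57). That 43811 bp downstream of the start of Camk2g was listed at Fut11 (12 tags, 7.89). Hdac4, Hdac5, Hdac7 and Hdac9 had no peak. This list too was drawn up with earlier results of these data known, so nothing was read from its counts.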

How the data were processed

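Peaks were called by the authors on 1 HDAC4 ChIP library against 1 input library, both from C2C12 myoblasts in GM. The mm10 genome and the tools cutadapt, MACS2, Bowtie2 and CASAVA 1.8.2 are credited to the submitters' processing notes. The table header gives MACS 2.1.0.20150316, a q-value cutoff of 0.01, tags of 50 bp, fragments of 297 bp and an effective genome size of 1870000000 bp. The deposited table gives pileup signal in tags, the ratio or fold over input, and −log10 p and −log10 q. A second deposited table of the same peaks has damaged numbers and was not used. With few ChIP tags kept, the 4 peaks rest on 10 to 16 tags each.

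Solving the fold for its denominator, (pileup + 1) / fold − 1, gave the input background. A Poisson test with that mean returned the deposited −log10 p within 0.000142 for all 229 peaks, and each background matched a window of the caller. Of the steps, the matching of a background to its window was tested on simulated peaks. There the right window had only to be among those returned. Poisson intervals are exact, and intervals of the plain ratio are exact conditional binomial intervals, at the 95% level. Both take the counts as unselected, whereas the peaks were called for a high count at the summit. The ratio interval of Crtc1 rests on the smaller of its 2 possible windows, with 17 input tags. Sequence and gene models came from GRCm38 (mm10), GENCODE M21 and RefSeq. Coordinates are 1-based. The 8 peaks on unplaced sequence were left out of sequence work. Promoters are from the RefSeq table for GRCm38, in which all 4 genes were matched. Matches to TGACG and TGACGTCA can overlap.

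The 4 genes, the 3 lists (94 genes) and the 9 motifs were chosen with earlier results of these data known. Genes named are the 4, those listed beside their peaks, list genes with a peak by any rule, and neighbors in fold rank; others named are holders of a motif, nearest peaks and genes marked as chosen afterwards. Alternatives tried were the constant in the fold, other ranks, other start sites, other rules for a peak at a gene and other motif windows. The scripts ran on Python 3.11.15 with pysam 0.24.0, scipy 1.17.1, matplotlib 3.10.9, pandas 2.3.3 and numpy 2.4.6.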

Additional observations from a re-analysis of the deposited data

How the results depend on the processing

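With the constant of 1 left out, the ratio of ChIP to scaled input was 15.4 at Junb, 14.8 at Nr4a1, 32.4 at Npas4 and 22.0 at Crtc1, since the backgrounds are near or below 1 tag. The immediate early genes with a peak were 1 of 34 with rows in or upstream of a gene only (an alternative chosen after seeing the data) and 7 within 100 kb of a start site, against 2 in the gene column. The class IIa HDAC list had 4 within 100 kb, against 2. Pairs of a motif and a gene fell to 4 in the window of 50 bp to each side of the summit, against 9 in that of 100 bp. With curated RefSeq starts, also chosen after seeing the data, the Nr4a1 distance was −12744 bp and the Npas4 distance −3157 bp. The remaining 34 comparisons of an alternative with the value reported stayed within counting error for ranks, 297 bp (the fragment length) for distances or 1.5 times for counts. For ranks this limit is wide, from 1 to 164 at Npas4 and from 4 to 223 at Junb. A rank within it is thus not shown to be stable. Npas4, for one, went from rank 8 by fold to 50 by −log10 q and 68 by pileup. At −log10 q of 5 or more all 4 genes kept their peak, and 3 lay at or above the median fold.

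The ChIP and the input were each sequenced once, so leaving out replicates was not done and the spread between cultures is unknown. No paired analysis was possible because each group has a single library. Intervals cover counting error of a library with 17.6% of its tags kept. Weaker sites are below what this depth detects. The IgG precipitate was not analysed here.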
